A study of Hipposideros armiger with 2 samples.

Results

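The genes described here are innate pathogen sensors, the adaptors and kinases that act directly below them, and the parts of the inflammasome. Members were chosen by gene name from a list of 45. Assembled genes with 33 of these names were used, out of 12782 distinct names with a value once 1 assembled gene was left out. RNA was sequenced from poly(A)-selected libraries of the great Himalayan leaf-nosed bat (Hipposideros armiger), and the 2 libraries, CW replicate 1 and CW replicate 2, form 1 group. Both are labelled as liver, wild type (WT) genotype and exposed to heavy metals, from the cave at Chunwan (CW). The design text describes adult males, 5 from each of 2 caves, and bats caught in the second cave are not analysed here. With 1 group there is no comparison between treatments. The values below describe the genes in these libraries and how far the libraries differed.

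Toll-like receptors (TLRs) recognise microbial lipids, proteins and nucleic acids at the cell surface or in endosomes, and most signal through MYD88 and the IRAK kinases to NF-kB. RIG-I-like receptors and cGAS detect RNA and DNA in the cytosol and signal through MAVS or STING to TBK1 and IRF3, which switches on interferon genes. Inflammasome sensors recruit PYCARD and CASP1, which release active IL1B and IL18 and cut the pore protein GSDMD. In liver these pathways are best known in Kupffer cells, which meet bacterial products from the gut. In lung they are best known in macrophages and epithelium. Bats are of interest for them because genome studies have reported that several bats lack the PYHIN family of DNA sensors, which holds AIM2 and IFI16.

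The libraries held 18741210 expected counts (replicate 1) and 18778331 expected counts (replicate 2). They differed in tissue markers. Replicate 2 went against a liver label, with far less hepatocyte than alveolar and airway marker TPM, and replicate 1 held high levels of both. All 13 hepatocyte markers were found, at a summed 16094 TPM (a transcript level scaled by length and sequencing depth) in replicate 1 and 481 TPM in replicate 2. Of 12 alveolar and airway markers, 12 were found, at 12415 and 19761 TPM in replicates 1 and 2. HOPX alone of these was at 0 counts in both libraries. Since these are bulk samples, fewer cells of a type and less RNA per cell cannot be told apart. Which tissue or tissues each library holds was not tested.

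The sensor and adaptor genes found were present at about the level of a typical name, with a median of 8.50 TPM in replicate 1 and 11.1 TPM in replicate 2 against 8.73 and 10.3 TPM for all names. Their TPM summed to 480 in replicate 1 and 623 in replicate 2 (552 ± 101, mean ± SD, n = 2), which was 0.0482% and 0.0625% of all TPM. A mean of at least 1 TPM was reached by 31 of 33 members (93.9%), against 96.4% of all names, and a mean of at least 10 TPM by 17 of 33 (51.5%), against 49.2% of all names. The 3 highest members held 46.8% of the summed TPM in replicate 1 and 44.2% in replicate 2; they were IRF3, MYD88 and CD14. A gene's level is given below as deposited TPM summed over all assembled genes of its name, in replicate 1 and then replicate 2. The typical name had more TPM in replicate 2: the median log2 ratio of TPM + 1, replicate 1 over replicate 2, was -0.33 over the names tested. Higher TPM in replicate 2, seen for 28 of 33 members, is to be read against that shift.

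**Figure D1:**
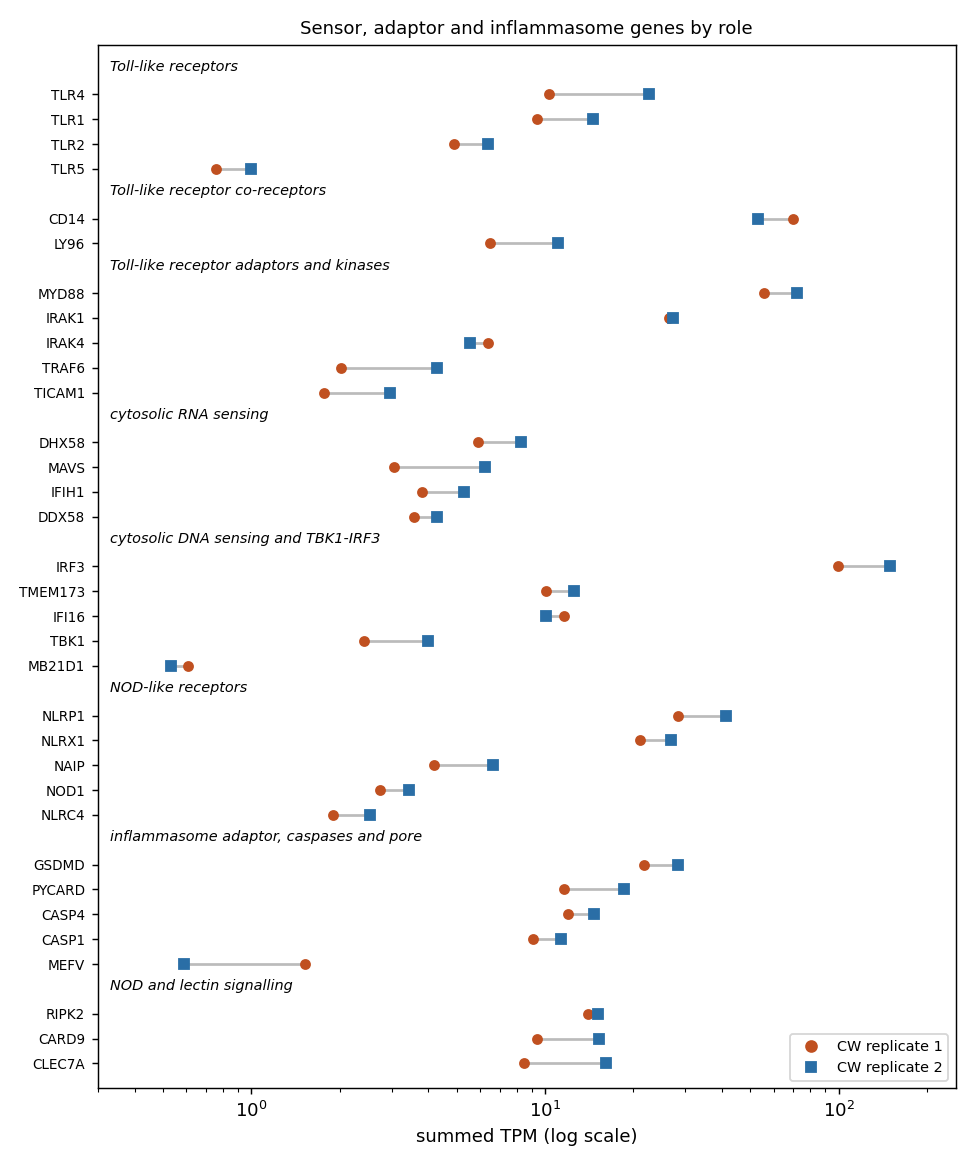
Summed TPM (log axis) of each of the 33 members found, grouped by role, with circles for CW replicate 1 and squares for CW replicate 2. IRF3, at 99.3 and 150 TPM, stands highest, and most members lie further right in replicate 2.

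Among the Toll-like receptors, 4 of 10 names were found, all of them surface receptors. TLR4, the receptor for bacterial lipopolysaccharide, had 10.3 TPM in replicate 1 and 22.6 TPM in replicate 2. TLR1, which pairs with TLR2 on lipopeptides, had 9.37 and 14.6 TPM. TLR2 itself had 4.89 and 6.39 TPM, and the flagellin receptor TLR5 had 0.76 and 1.0 TPM from 7 counts in each library. The order TLR4, TLR1, TLR2, TLR5 held in both libraries on summed TPM, although TLR4 and TLR1 lay within 1 SD of each other (16.4 ± 8.67 and 12 ± 3.68 TPM, n = 2) and most of the TLR4 value in replicate 2 came from short fragments. No assembled gene had the name of TLR3, TLR7, TLR8 or TLR9, the receptors for nucleic acids, nor of the surface receptors TLR6 and TLR10. UNC93B1, the chaperone that carries the endosomal receptors to their compartment, was at 35.6 and 57.8 TPM.

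Both co-receptors of TLR4 were found. CD14, which hands lipopolysaccharide to the receptor, was the third highest member by TPM, with 69.8 TPM in replicate 1 and 53.1 TPM in replicate 2. LY96, the subunit that binds lipopolysaccharide beside TLR4, had 6.48 and 11.1 TPM. CD14 was 1 of 5 members with more TPM in replicate 1, but its counts, 1037 in replicate 1 and 1255 in replicate 2, ran the other way. The difference lies in 2 short assembled genes. The main CD14 assembled gene, of 1328 bases, had 39.8 and 52.7 TPM. A pair of 361 and 222 bases added 30.0 TPM from 43 counts in replicate 1 and 0.42 TPM from 1 count in replicate 2.

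Adaptors and kinases of the Toll-like receptor pathway covered a wide range. MYD88, the adaptor shared by most of these receptors, was second by TPM, at 55.6 and 72.2 TPM. IRAK1, a kinase recruited by MYD88, followed at 26.4 and 27.3 TPM, and the kinase that acts before it, IRAK4, had 6.37 and 5.57 TPM. The ubiquitin ligase TRAF6 had 2.02 and 4.28 TPM, and TICAM1, the adaptor of TLR3 also known as TRIF, had 1.77 and 2.96 TPM. TIRAP, which bridges TLR4 and MYD88, had no assembled gene of its name.

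All 4 members of cytosolic RNA sensing were found, and all were below 10 TPM. DHX58, also known as LGP2, led with 5.91 TPM in replicate 1 and 8.29 TPM in replicate 2. MAVS, the mitochondrial adaptor, had 3.07 and 6.22 TPM. The RNA helicase IFIH1 (MDA5) had 3.81 and 5.30 TPM, and DDX58 (RIG-I) 3.57 and 4.27 TPM. Mean levels of IFIH1, DDX58 and MAVS lay within 1 SD of MAVS (4.64 ± 2.23 TPM, n = 2). On summed TPM these neighbours were therefore not separated by the spread between the libraries. That spread includes a 238-base MAVS fragment with 1 and 3 counts, at 0.92 and 3.11 TPM. The 2710-base MAVS assembled gene alone had 2.15 and 3.11 TPM, below IFIH1 and DDX58 in both libraries.

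The DNA sensing branch held both the highest and the lowest member. IRF3, the transcription factor at the end of the MAVS and STING routes, had 99.3 and 150 TPM, or 4189 and 5807 counts. TMEM173 (STING) had 10.1 and 12.5 TPM, and the kinase TBK1 had 2.41 and 4.0 TPM. In contrast, MB21D1 (cGAS), the enzyme that makes the STING ligand, had 0.61 and 0.53 TPM. That level rests on 3 and 2 counts in 1 assembled gene of 454 bases, at the detection floor of 3 counts in replicate 1 and under it in replicate 2.

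Of the PYHIN family, no assembled gene had the name AIM2, but 3 had the name IFI16. They had 11.6 TPM in replicate 1 and 10.1 TPM in replicate 2, from 23 and 20 counts. All 3 were short, at 401, 269 and 265 bases, and the tables list the HIN domain, the DNA-binding part of this family, for the 401-base and the 269-base ones. Their best protein match was human, which leaves their species of origin unknown; that origin was not tested. An 807-base assembled gene with the mouse PYHIN name IFI204, named here after its values were seen, had 11 and 18 counts and also lists a HIN domain.

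NOD-like receptors were led by NLRP1 and NLRX1. NLRP1, an inflammasome sensor, had 28.4 TPM in replicate 1 and 41.2 TPM in replicate 2. NLRX1, a mitochondrial member of the family, had 21.1 and 26.8 TPM. The flagellin sensing pair was lower, with NAIP at 4.17 and 6.63 TPM and NLRC4, the partner it activates, at 1.89 and 2.53 TPM. Of the NAIP value, a 310-base fragment with 4 and 8 counts gave 1.83 and 4.14 TPM. NOD1, a sensor of bacterial peptidoglycan, had 2.75 and 3.45 TPM. Names of NOD2, NLRP3 and NLRP6 were not among the assembled genes.

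NLRC3 has no value here, because its single assembled gene was left out by the rule that chose the members. That assembled gene, of 1951 bases with 44 transcripts, had 1673196 counts in replicate 1 and 1705302 counts in replicate 2, or 8.93% and 9.08% of all counts. Its TPM of 38889 and 44435 was 81 and 71.3 times the summed TPM of all 33 members. The tables list no protein domain for it, and its best protein match was mouse Nlrc3.

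Downstream parts of the inflammasome were all found. GSDMD, the pore protein of pyroptosis, had 21.8 TPM in replicate 1 and 28.4 TPM in replicate 2. PYCARD, the adaptor that joins sensors to CASP1, had 11.6 and 18.6 TPM, and CASP1 had 9.11 and 11.3 TPM. CASP4, which senses lipopolysaccharide inside the cell, had 12 and 14.7 TPM. Of this, a 242-base fragment with 5 and 8 counts gave 4.4 and 7.9 TPM, and the 1271-base assembled gene 7.56 and 6.8 TPM. MEFV (pyrin) was the lowest of this group at 1.52 and 0.59 TPM, from 20 and 7 counts. RIPK2, the kinase below NOD1, had 14.0 and 15.1 TPM. The fungal beta-glucan receptor CLEC7A (dectin) had 8.50 and 16.1 TPM, of which a 255-base fragment with 7 and 8 counts gave 5.37 and 6.82 TPM, and CARD9, the adaptor below it, had 9.37 and 15.3 TPM.

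In all, 11 members had no assembled gene of their name: TLR3, TLR6, TLR7, TLR8, TLR9, TLR10, TIRAP, AIM2, NOD2, NLRP3 and NLRP6. For 9 of them the symbol is in RefSeq's list of genes for this bat (assembly ASM189008v1), and for TLR9 and AIM2 it is not. A missing name gives no level. It does not show that the gene was silent, since only assembled and named transcripts are listed. Among the 33 members with a value, 26 had their symbol in that list. The other 7 were TLR1, DDX58, MB21D1, TMEM173, IFI16, CASP4 and CLEC7A. TLR1 had 295 counts in replicate 1 and 425 in replicate 2. Each name is a best protein match, so these counts may come from a related gene, which was not tested. Neither an unlisted symbol nor such a name alone settles whether this bat has the gene.

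The deposited TPM and the counts gave different weights to the same genes. The 33 members were spread over 65 assembled genes of 201 to 4635 bases, and 18 members had more than 1. Of those 18, 16 had over 80% of their counts in a single assembled gene. The 30 assembled genes under 500 bases held 1.37% of member counts in replicate 1 and 0.822% in replicate 2, but 20.7% and 13.2% of member TPM. For 11 members the main assembled gene held under 60% of the TPM.

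IRAK1 shows this. Its 2899-base assembled gene had 424 and 557 counts but 9.11 and 13.8 TPM, while 6 fragments of 201 to 341 bases added 17.3 and 13.5 TPM from 25 and 17 counts. TLR4 was alike, with 5.76 and 8.97 TPM in its 2591-base assembled gene and 4.56 and 13.6 TPM in 3 fragments from 13 and 28 counts. MYD88 differed in another way. Its 2551-base assembled gene, with 8 transcripts, had 54.5 and 70.7 TPM from only 465 and 590 counts, so its TPM correspond to 18.2% and 19.1% of the listed length.

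Levels were therefore also computed from counts over the listed length, rescaled to the total of TPM in each library, a choice made after the values were seen. On that scale IRF3 stayed highest, with a length-scaled level of 76.4 in replicate 1 and 115 in replicate 2. Its main assembled gene, of 4309 bases, groups 40 transcripts, and its TPM correspond to 54.0% and 53.6% of the listed length. Whether all of these transcripts belong to IRF3 was not tested. MYD88 went from rank 2 by TPM to rank 9, with length-scaled levels of 14.7 and 20.3, 3.65-fold below its mean TPM. CASP4 moved from rank 11 to rank 18, CLEC7A from 13 to 19, and IFI16 from 16 to 23. CD14 took rank 2, with length-scaled levels of 70.3 and 80.3, and NLRP1 rank 3, with 37.1 and 54.1. The 4 RNA sensing members held ranks 19 to 25 by TPM and 14 to 24 by length.

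**Figure D2:**
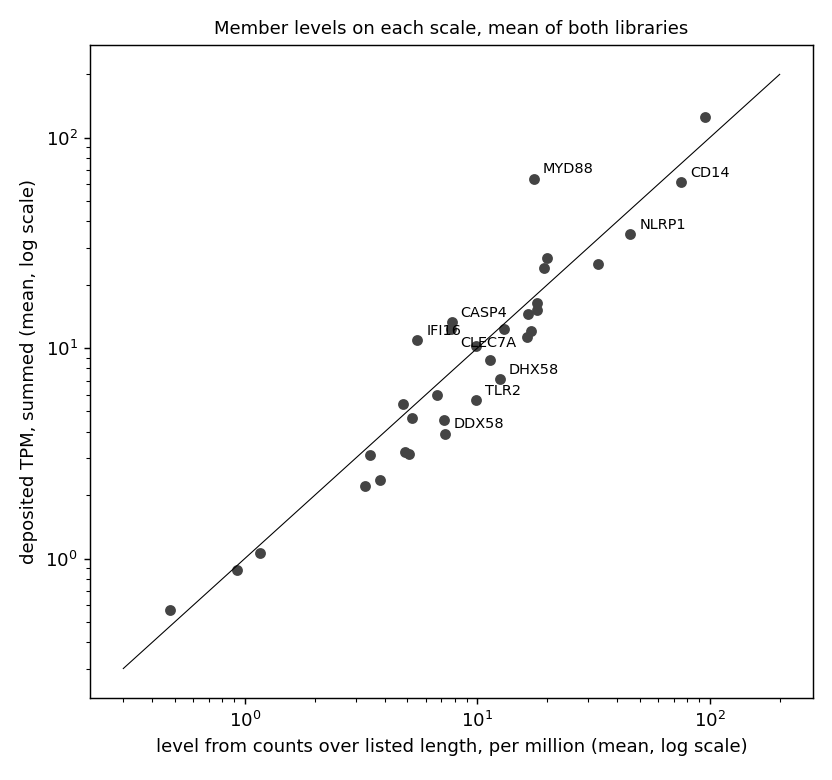
Mean level of each of the 33 members by deposited TPM (vertical, log axis) against the level from counts over listed length, scaled as TPM are (horizontal, log axis), with the line of equal values. MYD88 lies furthest above the line, at a mean of 63.9 TPM against a length-scaled level of 17.5.

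Libraries were then compared on counts. The ratio is replicate 1 over replicate 2 on log2(CPM + 1), where CPM is the count of a name per 1000000 counts of the library after TMM scaling, less the median of all names tested. A name was tested at a mean of at least 1 CPM. A single library against another allows no test, so a name past 2-fold was called apart. Of 33 members, 30 were tested, and 0 were more than 2-fold higher or lower in replicate 1. Among all 11291 names tested, 5.16% were over 2-fold higher in replicate 1 and 0.0266% over 2-fold lower. All 30 tested members lay within 1.5-fold on this scale, which shrinks ratios of low counts, as did 91.3% of all names. Their median log2 ratio was -0.05, with the middle 50% of members between -0.22 and 0.04; for all names the median was 0.00 with quartiles of -0.13 and 0.17.

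The lowest ratios were those of CLEC7A and TRAF6. CLEC7A had 56 counts in replicate 1 and 109 counts in replicate 2, a log2 ratio of -0.57 with a 95% counting interval of -1.19 to -0.22. TRAF6 had 140 and 250 counts, a log2 ratio of -0.52 (-0.88 to -0.27). These exact intervals are of the scaled counts without a pseudocount and cover counting error only, not the spread between animals. At the other end, CASP4 had 95 and 91 counts and a log2 ratio of 0.27 (-0.11 to 0.75), and IFI16 one of 0.24 (-0.47 to 1.40).

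Relative to the median of all names, the interval of 8 members lay wholly below 0, that is on the side of replicate 2: TLR1, TLR4, TRAF6, IRF3, NLRP1, PYCARD, GSDMD and CLEC7A. These were 26.7% of the 30 tested members, against 15.2% of all names tested. For 0 of the 30 tested members it lay wholly above 0, against 20.0% of all names. MEFV, which was not tested, is given below. The interval of PYCARD, -0.65 to -0.00, reached 0 after rounding. IRF3, with the most counts, had a log2 ratio of -0.21 (-0.27 to -0.15), NLRP1 -0.20 (-0.30 to -0.11) and GSDMD -0.15 (-0.30 to -0.01). TLR4 had -0.22 (-0.43 to -0.04) and TLR1 -0.25 (-0.48 to -0.05). On the CPM + 1 scale all 8 are differences of less than 1.5-fold between 2 libraries. That scale shrinks ratios of low counts. The intervals carry no pseudocount, and that of CLEC7A reached -1.19.

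By role, the median log2 ratio was -0.22 over 3 tested Toll-like receptors, -0.15 over 2 co-receptors, -0.13 over 3 members of NOD and lectin signalling and -0.09 over 5 adaptors and kinases. It was -0.08 over 4 DNA sensing members, -0.04 over 4 inflammasome parts, -0.03 over 4 RNA sensing members and 0.01 over 5 NOD-like receptors. MAVS (-0.03), IFIH1 (-0.04) and DHX58 (-0.05) were almost at the median of all names. The remaining 3 members found were under 1 CPM and were not tested. MEFV had 20 and 7 counts and a counting interval of 0.48 to 3.26, on the side of replicate 1. TLR5, with 7 counts in each library, had one of -1.48 to 2.0, and MB21D1 one of -2.28 to 4.43, so that neither direction can be read at this depth.

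**Figure D3:**
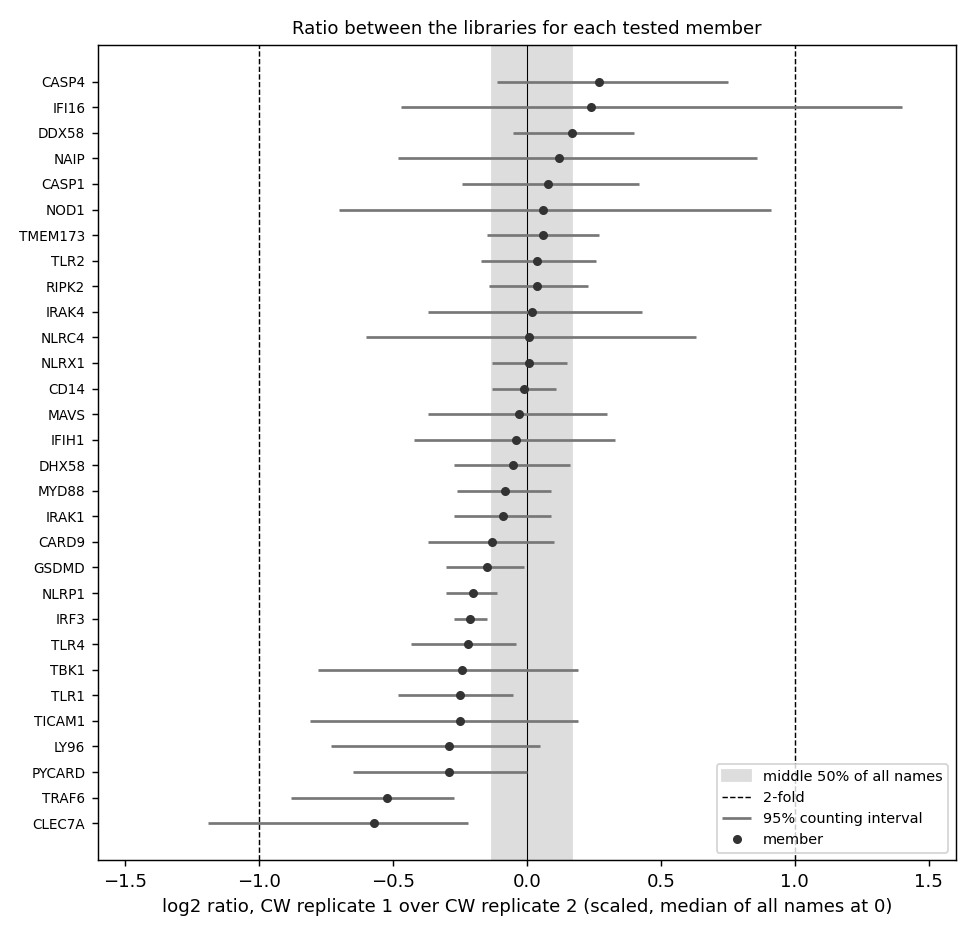
Log2 ratio of CW replicate 1 over CW replicate 2 for the 30 tested members (points), with 95% counting intervals (lines), the middle 50% of all names (grey) and 2-fold limits (dashed). All points lie between CLEC7A at -0.57 and CASP4 at 0.27, inside the 2-fold limits.

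Tissue and cell type markers were set beside these ratios. All 13 hepatocyte markers were over 2-fold higher in replicate 1, and their log2 ratios had a median of 5.10 and ran from 3.83 upwards. No tested sensor or adaptor gene had a ratio that high. Alveolar and airway markers had a median of -0.21 (10 tested of 12 found) and neutrophil markers one of -0.16 (8 tested of 10 found; 1391 and 2062 TPM summed; MPO at 0 counts in both libraries and ELANE at 0 in replicate 1). Within the neutrophil list MMP9 went the other way, at 0.63. SCGB1A1, an airway marker that was not tested, had 1 count in replicate 1 and 24 in replicate 2, with a counting interval of -9.69 to -1.71. The 30 tested members had a median of -0.05, with 12 above 0 and 18 below; whether any of these cells account for the members' ratios was not tested.

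Macrophage markers were mixed. Of 11 found, with summed levels of 361 and 419 TPM, 2 were over 2-fold higher in replicate 1: MARCO, a scavenger receptor, with a log2 ratio of 3.43, and CD5L with 1.66. The complement genes C1QA, C1QB and C1QC lay between 0.06 and 0.14. CD14, which monocytes and macrophages express strongly, had a ratio of -0.01. Dendritic cell markers, with 5 of 8 found, summed to 21.6 and 25.8 TPM with a median ratio of 0.09. B and plasma cell markers, with 6 of 8 found, summed to 332 and 489 TPM, and T and NK cell markers, with 7 of 8 found, to 24.0 and 35.0 TPM. The 4 tested B and plasma cell markers had a median of 0.21 but were split. IGHM, with 221 and 354 TPM, had -0.25, while JCHAIN, MZB1 and CD79A lay between 0.14 and 0.31. In the T and NK list 2 markers were tested, with a median of 1.19: CD8A, at 174 and 14 counts, was over 2-fold higher in replicate 1 (2.73), and CD3E had -0.35. CD4 was at 0 counts in both libraries and CD3D and CD3G at 0 in replicate 1. Endothelial markers, with 6 of 6 found, summed to 213 and 209 TPM (median -0.17) but were split. CLEC4G (log2 ratio 3.02) and STAB2 (1.20), which mark liver sinusoids, were over 2-fold higher in replicate 1, while PECAM1, CDH5, VWF and KDR lay at -0.17 to -0.18. The part of any of these cells in the members' levels was not tested.

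Single assembled genes were also compared. Of 47 member assembled genes with at least 10 summed counts, 3 (6.38%) were over 8-fold higher in replicate 1 on scaled counts + 1, a share near the 7.03% of 38467 such assembled genes of any name, and 0 were over 8-fold lower, against 0.218%. A 361-base CD14 assembled gene had 24 counts in replicate 1 and 1 in replicate 2, and a 222-base CD14 one had 19 and 0 counts. The other was a 512-base GSDMD assembled gene, with 20 and 1 counts. The main assembled genes of these names had log2 ratios of -0.07 for CD14 and -0.19 for GSDMD. Best protein matches of all 3 were human, as for 37 of the 65 member assembled genes; that of the main GSDMD assembled gene was human too, and that of the main CD14 one cattle.

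**Figure D4:**
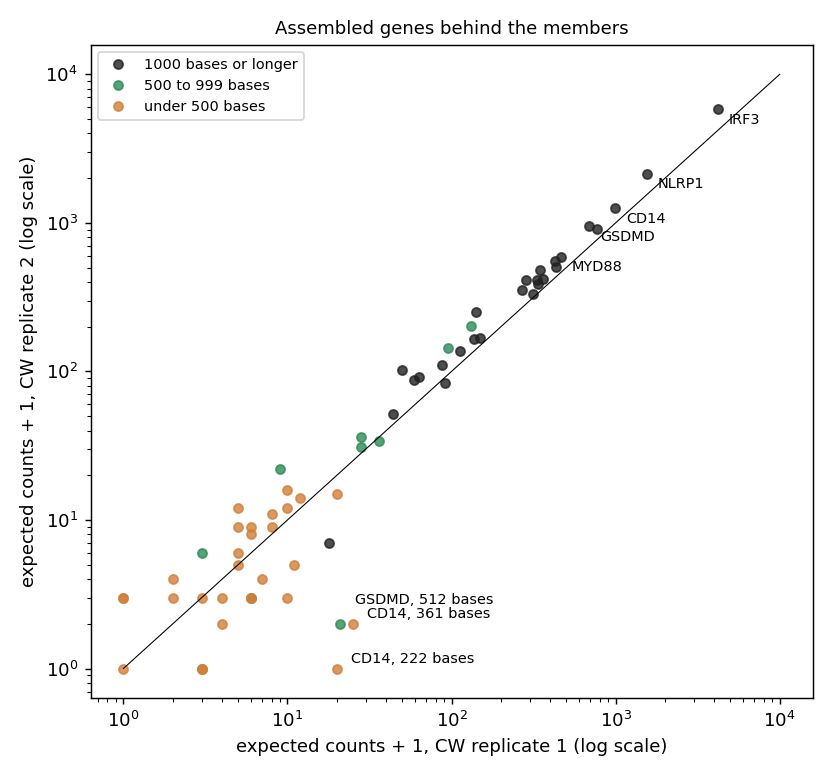
Expected counts + 1 of the 65 assembled genes in CW replicate 2 (vertical, log axis) against CW replicate 1 (horizontal, log axis), unscaled, coloured by length, with the line of equal counts. Long assembled genes follow the line, and 3 others, of CD14 (361 and 222 bases) and GSDMD (512 bases), lie far to the right of it.

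Most main assembled genes carried a listed protein domain, which the choice by name did not use. For 28 of 33 members one is listed, counting a domain of any kind, such as DUF4783 for NLRC4. The share over all assembled genes was not computed. Name and domain describe the same sequence, so the domain is no independent check of the name. The TIR domain, through which Toll-like receptors and MYD88 bind each other, is listed for the main assembled genes of TLR1, TLR2, TLR4 and MYD88. The CARD domain, a contact for caspases and kinases, is listed for those of CARD9, PYCARD and RIPK2. Main assembled genes of 26 members were at least 1000 bases long. The others, such as those of NOD1 (670 bases) and MB21D1 (454 bases), were shorter.

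Further genes of the same pathways were measured, from a list of 83. Of these, 67 were found and 63 tested; 1 was over 2-fold higher in replicate 1 and 0 lower. Their median log2 ratio was -0.01. The exception was COLEC11, a soluble lectin that binds microbial sugars, with 31.2 TPM in replicate 1 and 4.60 TPM in replicate 2 (log2 ratio 2.98). MBL2, the mannose-binding lectin that starts complement activation and is made by hepatocytes in other mammals, had 77.0 and 116 TPM (-0.17). LBP, which carries lipopolysaccharide to CD14 and is likewise known as a hepatocyte product, had 5.44 and 3.09 TPM (0.90).

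The highest of the other pathway genes was HSP90B1, a chaperone that Toll-like receptors need for folding, at 207 and 257 TPM. TXNIP, which binds thioredoxin, had 130 and 167 TPM. NFKBIA, the inhibitor that NF-kB induces against itself, had 123 and 153 TPM. IL1B, the cytokine that CASP1 activates, had 63.8 and 81.2 TPM, whereas IL18, its other substrate, had 4.0 and 5.57 TPM. The RNA helicase DDX3X had 56.7 and 77.0 TPM, ZNFX1 42.2 and 72.5 TPM, and the scavenger receptor CD36 62.4 and 42.1 TPM. All of these had log2 ratios between -0.21 and 0.65, so none was called apart.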

How the data were processed

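Per the file headers, the authors deposited expected counts, estimates with decimals, and a second value per assembled gene. The authors' second value was read as TPM, scaled by transcript length and depth, since it sums to 996837 and 996239; its header gives no unit. The 55378 features are Trinity clusters, and each Name is the authors' best Swiss-Prot match. Cutadapt 1.9 and, for replicate 1, mm10 stand in the submitters' processing notes; no source used here names the quantifier. Rows of 1 upper-cased name were summed, without the Nlrc3 row above 1000000 counts. Counts were rounded for scaling. TMM factors (edgeR 4.0.16, R 4.3.3) were 0.9096 and 1.0993, from all assembled genes. Ratios used log2(CPM + 1), which understates changes of low genes, at a mean of at least 1 CPM. The floor was 3 counts, 0.176 and 0.145 CPM. Counting intervals are exact binomial ones; they and the floor leave out duplicate reads of 1 molecule. The ratio procedure was run on simulated data in which as many names were raised as lowered. In these libraries 583 names were over 2-fold higher in replicate 1 and 3 lower, a setting the simulation did not cover. The design text describes separate animals, but no label ties a library to one, so the spread may be technical.

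Members and lists were chosen with earlier results of these data known. The rule for named genes took the 15 highest members, members over 2-fold apart, those under 3 counts in a library, 1 of each role, and, of other pathway genes, the 8 highest and those apart; further members, LBP, IL18, UNC93B1 and IFI204 were named after their values were seen. Alternatives were other scaling (DESeq2 1.42.0), pseudocounts, filters, names, lengths and libraries. Computations used scipy 1.17.1, pandas 2.3.3, numpy 2.4.6 and matplotlib 3.10.9 in Python 3.11.15. No protein or promoter sequences were used here.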

Additional observations from a re-analysis of the deposited data

How the results depend on the processing

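The count of members over 2-fold apart was 0 under all 11 alternatives tried, with 16 members tested at a mean of at least 10 CPM and 33 without a filter. No alternative joined the smaller pseudocount to the lack of a filter. MEFV, with 20 and 7 counts, was 1.61-fold apart on the CPM + 1 scale, while its log2 counting interval without a pseudocount was 0.48 to 3.26. The median log2 ratio went from -0.05 to -0.28 with library size scaling and the median kept, which by construction leaves the shift of all names in the ratio; the other 10 alternatives gave -0.03 to -0.07. Summed TPM went from 552 to 42214 when the Nlrc3-named assembled gene was kept, which that 1 assembled gene brings about, and ranged from 455 with only the largest assembled gene of each name to 552 under the other name, length and species choices; it was 524 from counts over listed length, an alternative added after the data were seen. Leaving out each replicate in turn gave 480 to 623 TPM. The number of members at 1 TPM or more was 31, and 30 to 32 under its 8 alternatives. The newer and orthologous names tried added no assembled gene. The mouse PYHIN name IFI204, described above, was found but was not added to the sum. No paired analysis was possible because both libraries belong to 1 group. Depth limits MB21D1, TLR5, MEFV and IFI16, which rest on few counts. The spread rests on 2 libraries that no label ties to separate animals.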

Other observations

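Of 4 names outside the list that were looked up after the data were seen (TLR2-1, IFI204, PYDC1 and PYDC3), only PYDC3 reached a mean of 1 CPM. Its assembled gene of 954 bases had 554 counts in replicate 1 and 10 counts in replicate 2, or 35.9 and 0.73 TPM, 22.34-fold higher in replicate 1 on the CPM + 1 scale. The best protein match was mouse, and the domain the table lists for it is not a pyrin domain. PYDC1, the pyrin-only protein name found in human, had 1 count in replicate 1 and 0 in replicate 2, and the chicken name TLR2-1 likewise had 1 and 0 counts.

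CARD8, which forms an inflammasome with CASP1 in human, had no assembled gene of its name, nor had IL1A, P2RX7, the ATP receptor upstream of NLRP3, or GSDME, a relative of GSDMD. NLRP10 was found with 12.9 and 26.9 TPM in replicates 1 and 2, from 83 and 117 counts in several assembled genes, and NLRC5, which drives MHC class I genes, at 3.48 and 4.73 TPM.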
